A study of Homo sapiens with 12 samples.

Results

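Named antisense RNAs are transcripts that carry the symbol of a coding gene followed by -AS and a number, because they are read from the strand opposite to that gene. In RNA-seq of MOLM-13 cells, 1388 such symbols were listed, 788 of them had at least 1 read, and 317 passed the level rule of at least 10 normalised counts in at least 3 of 12 libraries. They make up 317 of the 13448 gene symbols that passed the same rule, out of 46639 in all. They were chosen by symbol and by the level in these 12 libraries only, and 2 of the 317 passed it through the libraries of a single group (RAMP2-AS1 through ATRA and TPRG1-AS1 through DAC). Others, such as RARA-AS1, PAX8-AS1, BFSP2-AS1 and DTNB-AS1, passed mainly through the groups in which they are high. The gap between their groups is therefore not independent of the rule. At the limit, EAF1-AS1 and RUSC1-AS1 had a third-highest value of 10.03 and were kept, while CPB2-AS1 (9.86) and C2CD4D-AS1 (9.80) were left out.

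MOLM-13 is a human acute myeloid leukemia line with an MLL rearrangement. It was grown with GM-CSF and was either untreated, given 100 nM decitabine (DAC, which inhibits DNA methylation), given 1 µM all-trans retinoic acid (ATRA, a ligand of retinoic acid receptors), or given both (DAC+ATRA). Each group held 3 libraries, described as technical triplicates, so every p-value measures the spread between libraries of 1 experiment, and all of them come from 1 line. The labels give 96 h for untreated and 72 h for treated libraries, the series' design gives 72 h, the study's methods describe a later start of ATRA than of DAC, and no vehicle control was among the libraries. In comparisons against untreated, culture time and drug therefore cannot be told apart, whereas the 3 treated groups carry the same time in the labels. The interaction of both drugs also contains the untreated libraries, so the same limit holds for it.

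The recovered depth was 8.95 to 11.9 M reads in untreated, 4.67 to 6.95 M in DAC, 8.36 to 10.7 M in ATRA and 5.61 to 7.16 M in DAC+ATRA. Of 11 myeloid markers, 10 passed the level rule and CD68 was listed at 0. The other cell types' lists were low: their summed level per library was at most 2.04 for erythroid, 39.8 for B cell, 37.6 for T cell and 43.9 for epithelial markers, with CD2, MS4A1, KRT19, COL1A2 and DCN at 0 in every library. The fibroblast list went from 4.87 to 10.7 in untreated to between 64.5 and 86.3 with ATRA, all of it from COL1A1, and its part in the results below was not tested. The retinoid target CYP26A1, which encodes an enzyme that degrades retinoic acid, was at 0 in untreated and DAC and had mean normalised counts of 1331 in ATRA and 384 in DAC+ATRA.

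An antisense RNA can arise in several ways. In a head to head pair the sides with the starts adjoin. Without overlap the starts face away from each other, and with overlap each gene runs across the start of the other. Where such starts are close, both transcripts can share 1 stretch of open promoter. In a tail to tail pair the sides with the ends adjoin or overlap, and an antisense RNA can also lie wholly inside a coding gene or cover it. Some antisense RNAs act on the gene across from them, others act elsewhere or have no known role, and the name alone says nothing about regulation.

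In GENCODE release 44 on GRCh38, 167 of the antisense RNAs lay head to head with the gene of their name, 128 of them overlapping it and 39 not. Starts in the overlapping pairs thus face each other and can be far apart, by 41607 bases for HDAC2-AS2. A further 60 lay tail to tail, 54 inside that gene, 25 covered it and 1 (MYCBP2-AS2) ran on its strand. That gene was coding for 126 of the 128, for 53 of the 54 and for every other one of these, the exceptions being PRR34-AS1, ST20-AS1 and GAS5-AS1. No position relative to a partner was set for 10. A median of 8.09% of the exon bases of an antisense RNA lay under an exon of the opposite strand, with none in 73 and over 50% in 25. The libraries were strand-specific, while the strand setting of the read counting is not given in the sources used here. The authors counted per transcript, and several coding genes, such as CD68 and PAX8, are listed at 0 throughout. Levels are therefore compared between libraries and not between genes.

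The promoters show how unlike these starts are. RefSeq windows (GRCh38.p14) of 300 bases, 250 before and 50 after the start, were matched by symbol for 224 of the 317. Their median number of CpG dinucleotides, the sites that DNA methylation marks, was 23, against 14 over 27305 symbols that were not filtered by level. It was 26 in 117 head to head antisense RNAs, 25 in 46 that lie tail to tail, 16 in 39 inside the gene of their name and 19 in 19 that cover it. The sequences below are those of antisense RNAs on which the results turn, chosen because their groups of libraries are far apart, and CpG sites are in capitals.
EIF1B-AS1, chr3:40309649-40309948, minus strand: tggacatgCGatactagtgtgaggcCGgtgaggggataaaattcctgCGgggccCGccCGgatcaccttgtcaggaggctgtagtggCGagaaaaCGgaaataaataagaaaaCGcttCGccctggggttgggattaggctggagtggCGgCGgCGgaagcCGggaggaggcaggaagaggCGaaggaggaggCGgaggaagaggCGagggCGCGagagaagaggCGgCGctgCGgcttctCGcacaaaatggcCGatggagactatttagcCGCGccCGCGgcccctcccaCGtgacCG
GATA2-AS1, chr3:128488953-128489252, plus strand: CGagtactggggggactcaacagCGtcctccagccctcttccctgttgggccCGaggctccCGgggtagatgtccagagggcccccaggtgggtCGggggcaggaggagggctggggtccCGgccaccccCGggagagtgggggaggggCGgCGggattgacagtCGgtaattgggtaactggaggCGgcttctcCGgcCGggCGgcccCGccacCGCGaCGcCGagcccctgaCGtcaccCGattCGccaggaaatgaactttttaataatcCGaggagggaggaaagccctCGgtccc
SLC9A3-AS1, chr5:472986-473285, plus strand: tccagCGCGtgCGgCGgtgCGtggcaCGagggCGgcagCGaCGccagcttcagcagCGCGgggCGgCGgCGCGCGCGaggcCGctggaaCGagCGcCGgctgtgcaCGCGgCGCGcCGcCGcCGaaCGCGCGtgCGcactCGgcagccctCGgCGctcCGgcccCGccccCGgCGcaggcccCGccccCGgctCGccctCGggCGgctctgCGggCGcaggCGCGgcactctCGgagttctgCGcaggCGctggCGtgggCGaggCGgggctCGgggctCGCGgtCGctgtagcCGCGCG
DTNB-AS1, chr2:25420843-25421142, plus strand: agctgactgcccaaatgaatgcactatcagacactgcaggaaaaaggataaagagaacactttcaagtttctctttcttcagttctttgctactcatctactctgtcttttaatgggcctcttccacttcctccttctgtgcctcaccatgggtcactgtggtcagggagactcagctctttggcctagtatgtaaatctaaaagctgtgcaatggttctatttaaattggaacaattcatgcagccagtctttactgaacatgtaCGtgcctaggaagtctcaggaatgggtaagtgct
INHBA-AS1, chr7:41693669-41693968, plus strand: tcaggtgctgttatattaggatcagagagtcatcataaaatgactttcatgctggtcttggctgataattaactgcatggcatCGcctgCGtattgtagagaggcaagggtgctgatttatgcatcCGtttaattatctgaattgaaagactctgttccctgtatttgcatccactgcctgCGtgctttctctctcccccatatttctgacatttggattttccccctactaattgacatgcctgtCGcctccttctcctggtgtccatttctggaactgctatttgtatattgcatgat
RARA-AS1, chr17:40343087-40343386, minus strand: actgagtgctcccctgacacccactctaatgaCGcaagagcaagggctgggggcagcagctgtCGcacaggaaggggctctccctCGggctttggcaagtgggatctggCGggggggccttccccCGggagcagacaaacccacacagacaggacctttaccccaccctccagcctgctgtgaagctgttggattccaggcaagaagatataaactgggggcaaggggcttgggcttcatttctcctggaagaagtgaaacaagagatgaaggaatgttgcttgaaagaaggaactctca
PAX8-AS1, chr2:113235277-113235576, plus strand: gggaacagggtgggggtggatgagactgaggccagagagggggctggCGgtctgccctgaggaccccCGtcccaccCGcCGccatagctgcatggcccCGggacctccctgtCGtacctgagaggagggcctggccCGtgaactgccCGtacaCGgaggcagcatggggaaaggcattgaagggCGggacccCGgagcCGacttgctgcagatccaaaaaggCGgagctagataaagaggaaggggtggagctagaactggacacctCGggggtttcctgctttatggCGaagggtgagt
PAX8-AS1, a later start, chr2:113236019-113236318, plus strand: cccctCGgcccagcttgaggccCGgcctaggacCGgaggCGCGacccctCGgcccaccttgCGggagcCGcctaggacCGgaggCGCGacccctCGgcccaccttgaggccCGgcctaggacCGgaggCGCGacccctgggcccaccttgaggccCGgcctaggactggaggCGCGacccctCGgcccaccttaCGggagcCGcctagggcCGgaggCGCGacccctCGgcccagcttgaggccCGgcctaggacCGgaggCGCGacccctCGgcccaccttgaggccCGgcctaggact

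The SLC9A3-AS1 window held 61 CpG sites, EIF1B-AS1 29, GATA2-AS1 24, INHBA-AS1 and RARA-AS1 5 each and DTNB-AS1 1. The PAX8-AS1 windows held 15 and 32. The EIF1B-AS1 window shared 108 bases with the window of EIF1B itself, and 48 of the antisense RNAs had a window that overlapped that of their partner. The letters AGGTCA, the core letters of the site that retinoic acid receptors are known to bind, were searched on both strands. They occurred in 18 of the 224 windows (8.04%), against 13.9% of the 27305 symbols not filtered by level, and in none of those printed. Both comparisons thus set antisense RNAs that passed the level rule beside an unfiltered set. Among antisense RNAs named here, LAMP5-AS1, BFSP2-AS1 and ALOX12-AS1 each held 1, as did both windows of PRKAR1B-AS1 and 1 of the 3 windows of FGD5-AS1. A match is only a match of letters.

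The first question was how many antisense RNAs each treatment changed. With limma on log2(normalised count + 1), over all 13448 symbols and at an adjusted p under 0.01, DAC changed 12 of 317 against untreated (3.79%, 5 higher and 7 lower), where 6.76% of all symbols were called, 3.68% higher and 3.08% lower. ATRA changed 67 (21.1%, 29 higher and 38 lower), against 23.7% of all symbols, 11.1% higher and 12.6% lower. DAC+ATRA changed 83 (26.2%, 32 higher and 51 lower), against 26.1% of all symbols, 12.7% higher and 13.4% lower. In all, 101 were changed in at least 1 of these comparisons and 209 in none of the 6 computed. The matching totals for all symbols were not computed. In bulk RNA, a smaller share of cells that express a transcript and less of it per cell cannot be told apart. The DAC count was 7 without untreated replicate 2, 19 without DAC replicate 3 and 5 when only the compared groups entered the fit.

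The antisense RNAs were low, with a median over libraries of 29.5 normalised counts against 114 for protein-coding genes, and their median SD between replicates was 0.24 (log2) in untreated cells, 0.36 with DAC, 0.30 with ATRA and 0.31 with both drugs, against 0.17 to 0.28 in coding genes. Among symbols with a mean count under 30, DAC+ATRA changed 18.6% of 161 antisense RNAs and 12.9% of 4099 others, and from 30 to below 100 it changed 27.5% of 102 and 22.5% of 3069. From 100 to below 300 it changed 40% of 40 antisense RNAs and 30.7% of 2347 others, and from 300 upwards 64.3% of 14 and 41.2% of 3616. DAC changed 2.48% of antisense RNAs and 2.42% of others in the lowest of these ranges, then 1.96% and 5.28%, 5% and 7.58%, and 28.6% and 12.7% in the highest. For ATRA these shares were 14.9% and 12.9%, 20.6% and 20%, 37.5% and 28.8%, and 50% and 36.2%. The median log2 change over the 317 was -0.04 after DAC, -0.03 after ATRA and -0.14 after both drugs, against -0.01, -0.03 and -0.01 over all symbols. Long intergenic RNAs (LINC, 177 symbols) were called at 5.65%, 26% and 24.9%, and divergent transcripts (-DT, 51 symbols) at 1.96%, 13.7% and 17.6%.

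**Figure D1:**
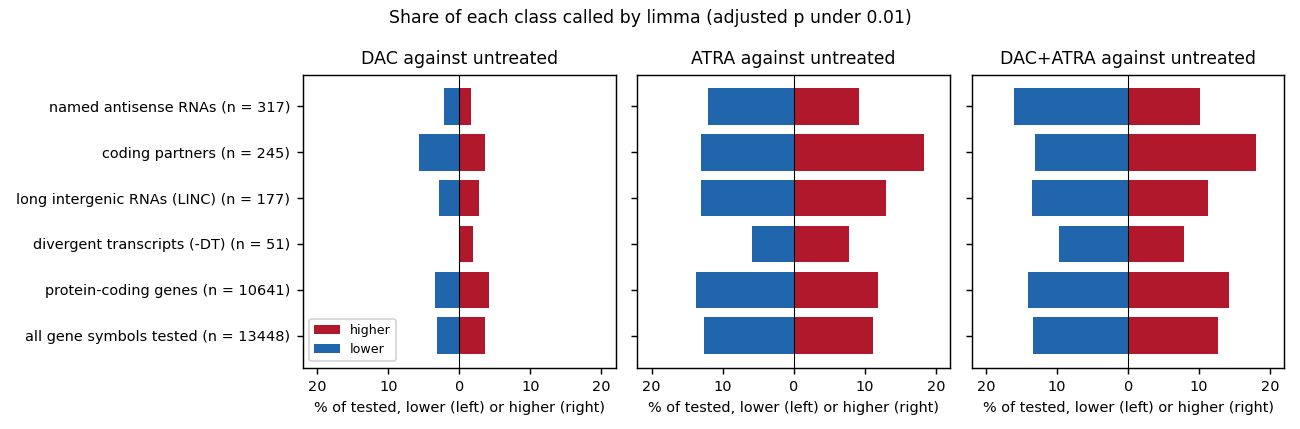
Share of each transcript class called higher (red, right) or lower (blue, left) in 3 comparisons against untreated, in percent of the symbols tested (limma, adjusted p under 0.01). Of the named antisense RNAs, 1.58% rose and 2.21% fell with DAC, 9.15% and 12% with ATRA and 10.1% and 16.1% with DAC+ATRA.

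Several antisense RNAs rose with ATRA. IRF1-AS1 lies tail to tail with IRF1, an interferon-response transcription factor (chr5:132410636-132488702, plus strand), with 32.2% of its exon bases under opposite-strand exons. It had normalised counts of 21.8, 13 and 20.7 in untreated, 10.2, 20.4 and 7.62 in DAC, 201, 252 and 310 in ATRA and 255, 227 and 230 in DAC+ATRA. Every library with ATRA stood above every library without it. The log2 change was 3.72 ± 0.29 (SE) with ATRA (limma, adjusted p = 6.63e-09) and, after both drugs, 3.64 ± 0.29 (limma, adjusted p = 1.02e-08). IRF1 itself went from a mean of 126 to 1139 with ATRA and to 791 with both drugs, a log2 change of 3.16 and 2.65.

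EIF1B-AS1 starts 9 bases from EIF1B, which encodes a protein close to translation initiation factor 1, and runs the other way (chr3:40061110-40309698, minus strand). Its libraries read 63.8, 77.9 and 54.6 in untreated, 59.8, 59.6 and 65.3 in DAC, 305, 310 and 351 in ATRA and 385, 391 and 368 in DAC+ATRA. The values of both groups with ATRA lay apart from those of both groups without it, and each of its 7 transcripts listed was higher on average in both. It rose by 2.29 ± 0.16 (log2, SE) with ATRA (limma, adjusted p = 8.54e-10) and, after both drugs, by 2.54 ± 0.16 (limma, adjusted p = 2.16e-10). EIF1B rose by 3.25 and 3.02, from a mean of 685 to 6548 and 5566.

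SLC9A3-AS1 lies inside SLC9A3, the gene of a sodium/proton exchanger (chr5:473236-480884, plus strand). It fell with DAC and rose with ATRA. Its values were 166, 201 and 193 in untreated, 113, 113 and 92.5 in DAC, 1713, 1921 and 2398 in ATRA and 788, 944 and 793 in DAC+ATRA, so that no 2 groups overlapped. The log2 change from untreated to DAC was -0.81 ± 0.14 (limma, adjusted p = 0.000699), that to ATRA 3.41 ± 0.14 (limma, adjusted p = 6.02e-13) and that from ATRA to both drugs -1.25 ± 0.14 (limma, adjusted p = 4.51e-06). SLC9A3 was at 0 in every untreated library and had a mean of 71.6 in ATRA, at least 32.3-fold higher than the floor of 3 reads per library. Of the 10 listed transcripts of the antisense RNA, 6 passed the level rule, and all 6 were higher on average with ATRA.

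Smaller antisense RNAs went from almost no reads to clear levels. DTNB-AS1, inside the gene of a dystrobrevin, had 0, 0.81 and 1.88 normalised counts in untreated, 0, 3.14 and 0 in DAC, 59.1, 64.7 and 66.0 in ATRA and 15.4, 19.1 and 11.2 in DAC+ATRA. From 4 reads in untreated to 232 in ATRA the ratio was 65.2 (95% exact interval 25.1 to 241, counting error only), and DTNB had means of 1.04 to 3.44 in the 4 groups. DTNB-AS1 passed the level rule only through libraries with ATRA, so this ratio is not independent of the rule. BFSP2-AS1, inside the gene of a lens filament protein, had a mean of 1.04 in untreated, 0 in DAC, 29.8 ± 7.27 (SD, n = 3) in ATRA and 9.44 ± 3.14 in DAC+ATRA. Its log2 change with DAC+ATRA, 2.66, was no longer called without untreated replicate 2 or 3 or DAC+ATRA replicate 2 (limma, adjusted p up to 0.0139).

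USP30-AS1, inside the gene of a mitochondrial deubiquitinase, rose from 4.67, 6.49 and 2.51 in untreated to 40.3, 38.0 and 57.7 after ATRA (log2 change 3.10 ± 0.47, limma adjusted p = 3.16e-05) and to 21.0, 18 and 21.4 after both drugs, the latter call lost with a pseudocount of 0.1 (limma, adjusted p = 0.0516) and without untreated replicate 3 or DAC+ATRA replicate 3 (limma, adjusted p up to 0.0156). USP30 had a log2 change of -0.27 with ATRA (limma, adjusted p = 0.38). NXT1-AS1, head to head with the gene of an mRNA export cofactor, had 3.11, 2.44 and 7.53 in untreated, 42.1, 46.9 and 40.1 in ATRA and only 2.80, 9.01 and 10.2 in DAC+ATRA. Its log2 change with ATRA of 3.15 (limma, adjusted p = 0.00276) was lost in 6 of 22 alternatives, among them without untreated replicate 1 or 2 or any 1 of the ATRA libraries, with an adjusted p of up to 0.0422. ALOX12-AS1, named here after its values were seen, covers the gene of 12-lipoxygenase and rose by 1.34 with ATRA and 1.40 with DAC+ATRA, where ALOX12 itself rose by 3.19 and 2.56.

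**Figure D2:**
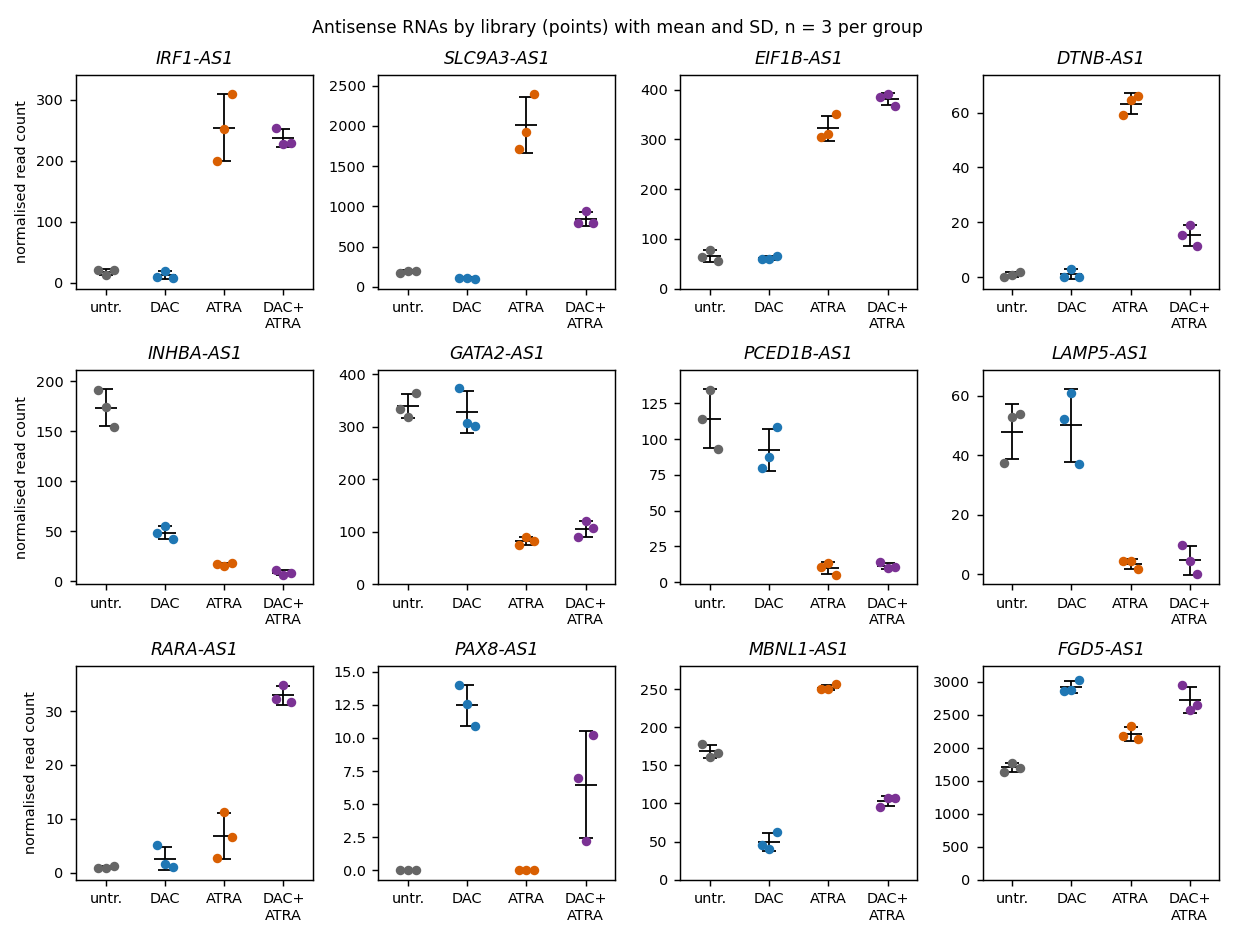
Normalised read counts of 12 antisense RNAs in the 4 groups, with each library as a point and the mean and SD as bars (n = 3), and a separate linear axis for each RNA. IRF1-AS1, SLC9A3-AS1, EIF1B-AS1 and DTNB-AS1 were high in both groups with ATRA, INHBA-AS1, GATA2-AS1, PCED1B-AS1 and LAMP5-AS1 were low there, RARA-AS1 was highest in DAC+ATRA (mean 32.9), and PAX8-AS1 had reads only in both groups with DAC.

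Other antisense RNAs fell with ATRA. INHBA-AS1 is head to head with INHBA, which encodes a subunit of activin A, and their starts are 11950 bases apart (chr7:41693884-41779388, plus strand). Its values were 191, 174 and 154 in untreated, 48.3, 54.9 and 42.5 in DAC, 17.0, 14.9 and 18.4 in ATRA and 11.2, 6.75 and 8.17 in DAC+ATRA. The 4 groups did not overlap. It fell by 1.81 ± 0.26 on the log2 scale with DAC (limma, adjusted p = 7.92e-05), by 3.29 with ATRA (limma, adjusted p = 6.5e-09) and, after both drugs, by 4.19 (limma, adjusted p = 2.18e-10). INHBA fell by 2.09, 2.89 and 4.20, from a mean of 1239 to 292, 182 and 66.4. This was the only pair called together in all 3 comparisons against untreated, and none of these INHBA-AS1 calls was lost under an alternative.

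GATA2-AS1, named after its values were seen, starts 3989 bases from GATA2, a transcription factor of blood stem and progenitor cells (chr3:128489212-128502970, plus strand). It had 334, 319 and 364 in untreated, 374, 307 and 303 in DAC, 74.4, 90.8 and 81.9 in ATRA and 89.6, 120 and 107 in DAC+ATRA. Libraries with and without ATRA did not overlap. The antisense RNA fell by 2.03 ± 0.15 on the log2 scale with ATRA (limma, adjusted p = 4.42e-09), while GATA2 fell by 5.09 ± 0.30, from a mean of 579 to 17.8. With DAC+ATRA the log2 changes were -1.68 and -4.12.

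LAMP5-AS1 and VLDLR-AS1 both lie head to head with their coding genes, which encode a lysosome-associated membrane protein and a lipoprotein receptor. LAMP5-AS1 had 37.3, 52.8 and 53.9 in untreated, 52.2, 61.2 and 37.0 in DAC, 4.48, 4.46 and 1.67 in ATRA and 9.80, 4.50 and 0 in DAC+ATRA. It fell by 3.49 with ATRA (limma, adjusted p = 0.000169, and 0.014 with a pseudocount of 0.1) on the log2 scale, and LAMP5 fell by 1.01, from 1725 to 860. VLDLR-AS1 had 51.3, 28.4 and 45.2 in untreated and 2.69, 7.44 and 2.51 in ATRA (log2 change -3.12, limma adjusted p = 6.97e-05), and VLDLR had a log2 change of -2.66. In both pairs the libraries with ATRA lay below all those without it.

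PCED1B-AS1, inside PCED1B, had 114, 135 and 93.5 in untreated, 80.1, 87.8 and 109 in DAC, 10.8, 13.4 and 5.02 in ATRA and 14, 10.1 and 10.2 in DAC+ATRA. Its log2 change was -3.50 ± 0.31 with ATRA (limma, adjusted p = 4.14e-08) and -3.21 after both drugs, and each of its 3 transcripts that passed the level rule was lower on average in both. CA3-AS1, tail to tail with a carbonic anhydrase gene, went from a mean of 25.5 ± 8.45 (SD, n = 3) in untreated cells to 3.15 ± 2.16 after ATRA and 2.97 ± 4.28 after both drugs. Its call with ATRA, a log2 change of -2.79, was lost with a pseudocount of 0.1 (limma, adjusted p = 0.0341) and without untreated replicate 3 or ATRA replicate 1 (limma, adjusted p up to 0.0156). MSC-AS1, which covers the gene of the transcription factor musculin, had means of 9.82 and 0.77, and MSC had 38.0 and 2.56. This MSC-AS1 call (log2 change -2.64, limma adjusted p = 0.00502) was lost in 6 of 21 alternatives, including without untreated replicate 1 or 2 or ATRA replicate 1 or 3, with an adjusted p of up to 0.0303. The most abundant of the 317 by count, OIP5-AS1, went from 10264 ± 81.6 to 5961 ± 328 with ATRA and to 5942 ± 350 with DAC+ATRA (log2 change -0.79 in both).

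DAC alone changed 12 antisense RNAs. PAX8-AS1 is tail to tail with PAX8, a transcription factor of thyroid and kidney (chr2:113211421-113276581, plus strand). It was at 0 in all 3 untreated and all 3 ATRA libraries, had 14, 12.5 and 10.9 normalised counts in DAC and 7.0, 2.25 and 10.2 in DAC+ATRA. PAX8-AS1 thus passed the level rule only through libraries with DAC. DAC was at least 5.63-fold above the floor of 3 reads per untreated library (limma, adjusted p = 0.000637). With DAC+ATRA the call was lost without DAC+ATRA replicate 1 or 3 (limma, adjusted p up to 0.021), and PAX8 was at 0 in every library.

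AFAP1-AS1, tail to tail with the gene of an actin filament protein, had 4.67, 2.44 and 9.41 in untreated, 20.4, 18.8 and 34.8 in DAC, 1.79, 2.23 and 4.18 in ATRA and 28.0, 19.1 and 11.2 in DAC+ATRA. All 6 libraries with DAC stood above all 6 without it. The log2 change with DAC was 2.08 ± 0.50 (limma, adjusted p = 0.00839). That call was lost in 11 of 22 alternatives, including without untreated replicate 1 or 2, any 1 DAC library, ATRA replicate 2 or DAC+ATRA replicate 2, with an adjusted p of up to 0.0567. SLCO4A1-AS1, inside the gene of an organic anion transporter, had 35.8, 21.9 and 23.2 in untreated, 67.4, 73.7 and 68.6 in DAC, 23.3, 20.1 and 26.8 in ATRA and 39.2, 63.0 and 64.3 in DAC+ATRA. Again the libraries with DAC lay above those without it. The log2 change was 1.37 ± 0.27 with DAC (limma, adjusted p = 0.00173), not called in a fit of untreated and DAC libraries alone (limma, adjusted p = 0.0161) or without untreated replicate 2 or 3 (limma, adjusted p up to 0.0143), and 1.19 from ATRA to DAC+ATRA (limma, adjusted p = 0.00393).

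The other gains with DAC were in antisense RNAs of higher counts. FGD5-AS1 rose from 1704 ± 73.6 (SD, n = 3) to 2922 ± 88.4 (log2 change 0.78 ± 0.09, limma adjusted p = 1.36e-05) and read 2210 ± 103 after ATRA and 2728 ± 199 after both drugs. ASB16-AS1 rose from 63.1 ± 5.42 to 115 ± 16.3 (log2 change 0.85, limma adjusted p = 0.0035), a call lost in a fit of untreated and DAC libraries alone (limma, adjusted p = 0.0299) and without untreated replicate 1 or 2 or DAC replicate 1 or 2 (limma, adjusted p up to 0.0208). FGD5 had a mean of at most 0.27 in any group and ASB16 of at most 2.72.

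Among the losses with DAC, MBNL1-AS1 lies inside MBNL1, the gene of a splicing regulator (chr3:152245262-152269590, minus strand). It had 178, 161 and 166 in untreated, 45.8, 40.8 and 63.1 in DAC, 250, 250 and 257 in ATRA and 95.2, 107 and 107 in DAC+ATRA, and no 2 groups overlapped. The log2 change from untreated to DAC was -1.76 ± 0.17 (limma, adjusted p = 1.19e-06), -1.28 ± 0.17 from ATRA to DAC+ATRA (limma, adjusted p = 2.83e-05) and 0.58 with ATRA (limma, adjusted p = 0.0125). MBNL1 had -0.39 with DAC (limma, adjusted p = 0.13). EPB41L4A-AS1 fell by 0.64 with DAC, by 0.87 with ATRA and by 1.02 with DAC+ATRA (log2), from 1214 ± 95.6 to 781 ± 64.2, 665 ± 26.2 and 600 ± 59.1. When the fit held the compared groups only, the DAC calls of EPB41L4A-AS1 and SLC9A3-AS1 were lost (limma, adjusted p = 0.0105 and 0.0187). Losses with DAC in PITRM1-AS1 (log2 change -1.89, limma adjusted p = 0.00986) and USP30-AS1 (-2.01, limma adjusted p = 0.00673) were each lost in 15 of 22 alternatives. These included edgeR and DESeq2 on recovered reads. PITRM1-AS1 was also lost without any 1 library other than DAC replicate 1 or 3 (limma, adjusted p up to 0.0479), and USP30-AS1 without any 1 other than untreated replicate 3, DAC replicate 1 or DAC+ATRA replicate 1 (limma, adjusted p up to 0.0461). USP30-AS1 had 18 reads in untreated and 1 in DAC, a ratio of 10.3 with an exact interval of 1.62 to 427.

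To see what 1 drug did on top of the other, both drugs together were set against either one. Against DAC, 55 antisense RNAs changed (17.4%, 20 higher and 35 lower), where 17.1% of all symbols were called, 8.2% higher and 8.94% lower. Against ATRA, 16 changed (5.05%, 4 higher and 12 lower), where 10.3% of all symbols were called, 5.33% higher and 4.96% lower. Without ATRA replicate 2, ATRA replicate 3, DAC+ATRA replicate 2 or DAC+ATRA replicate 3 the latter count was 8, 10, 9 and 10. The contrasts DAC against untreated and DAC+ATRA against ATRA share no library. They had 6 antisense RNAs in common, 50% of the first 12 and 37.5% of the second 16, each in the same direction. Among them, PAX8-AS1, AFAP1-AS1 and SLCO4A1-AS1 were higher and MBNL1-AS1 and SLC9A3-AS1 lower with DAC. In the contrast against ATRA, 3 of these calls were lost without 1 library: AFAP1-AS1 without ATRA replicate 2 or DAC+ATRA replicate 1 or 2, PAX8-AS1 without any 1 ATRA library or DAC+ATRA replicate 1 or 3, and SLCO4A1-AS1 without ATRA replicate 1 or 2 or DAC+ATRA replicate 2 or 3 (limma, adjusted p up to 0.0155, 0.0413 and 0.0272). The PAX8-AS1 call was also lost with a pseudocount of 5 and with the replicate block. Likewise 39 were called both in ATRA against untreated and in DAC+ATRA against DAC, 58.2% of 67 and 70.9% of 55, and all 39 moved the same way. The matching overlaps for all symbols were not computed. Whether antisense RNAs overlap more or less than other genes therefore cannot be told from these shares.

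RARA-AS1 lies inside RARA, the gene of retinoic acid receptor alpha (chr17:40340867-40343136, minus strand). It had 0.78, 0.81 and 1.25 normalised counts in untreated, 5.09, 1.57 and 1.09 in DAC, 2.69, 11.2 and 6.69 in ATRA and 32.2, 34.9 and 31.7 in DAC+ATRA. The 3 libraries with both drugs stood above all the others. From 4 reads in untreated to 85 in DAC+ATRA the ratio was 33.8 (95% exact interval 12.7 to 127, counting error only; limma, adjusted p = 9.71e-06). It also rose from DAC to DAC+ATRA by 3.41 ± 0.56 (log2, limma adjusted p = 0.000122) and from ATRA to DAC+ATRA by 2.27 ± 0.56 (limma, adjusted p = 0.00741), the last lost in 8 of 22 alternatives, among them without ATRA replicate 1 or 3 or any 1 DAC+ATRA library (adjusted p up to 0.0403). Its interaction term was 1.55 (limma, adjusted p = 0.409), so a departure from the sum of both drugs was not called. RARA had means of 27.1, 38.0, 41.2 and 62.1, with a log2 change of 1.21 with DAC+ATRA (limma, adjusted p = 0.0175).

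PRKAR1B-AS1 and DARS-AS1 had their lowest means with both drugs, but for neither was the step from ATRA to DAC+ATRA called. PRKAR1B-AS1, inside the gene of a protein kinase A subunit, had 131, 147 and 110 in untreated, 68.7, 47.0 and 64.2 in DAC, 34.0, 50.6 and 46.0 in ATRA and 1.40, 21.4 and 21.4 in DAC+ATRA (log2 change -3.60 ± 0.56 with DAC+ATRA, limma adjusted p = 4.17e-05). DAC+ATRA replicate 1 stood apart from the rest of its group. From ATRA to DAC+ATRA the log2 change of PRKAR1B-AS1 was -2.05 (limma, adjusted p = 0.0142). From DAC to DAC+ATRA it was -2.50 (limma, adjusted p = 0.00214), a call not kept with just these groups in the fit (limma, adjusted p = 0.0149). DARS-AS1, named for an aspartyl-tRNA synthetase gene that has no row under that symbol, had a mean of 39.4 ± 7.45 (SD, n = 3) in untreated cells, 18.99 ± 5.56 with DAC, 9.70 ± 7.07 with ATRA and 2.46 ± 1.58 with both drugs. From DAC+ATRA to untreated its reads went from 6 to 160, a ratio of 16.7 (95% exact interval 7.53 to 46.3, counting error only; limma, adjusted p = 5.6e-06).

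On the log2 scale, the combination departed from the added single-drug changes in 3 antisense RNAs (0.946%, 1 higher and 2 lower), where 1.29% of all symbols were called, 0.573% higher and 0.714% lower. ADAMTSL4-AS1 had 14, 17.0 and 14.4 in untreated, 20.4, 22 and 19.6 in DAC, 112, 182 and 119 in ATRA and 46.2, 47.3 and 37.8 in DAC+ATRA, with an interaction of -2.03 ± 0.36 (limma, adjusted p = 0.00246), lost without ATRA replicate 2 or DAC+ATRA replicate 3 (adjusted p up to 0.0142). Between 86.1% and 96.6% of its level came from 1 transcript that GENCODE release 44 gives to MCL1, the gene of an apoptosis inhibitor on the same strand. MCL1 had means of 508, 362, 1469 and 516 in untreated, DAC, ATRA and DAC+ATRA and an interaction of -1.03 ± 0.24 (limma, adjusted p = 0.0247), so its own reads and those under the antisense symbol cannot be told apart by name. ADAMTSL4, the gene of the symbol, had means of 9.47 to 12.

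ITGB2-AS1 lies inside ITGB2, which encodes the beta-2 integrin of leukocytes (chr21:44921051-44929680, plus strand). It had 103, 110 and 92.2 in untreated, 126, 162 and 143 in DAC, 418, 480 and 439 in ATRA and 249, 263 and 320 in DAC+ATRA, and no 2 groups overlapped. Its interaction was -1.17 ± 0.21 (limma, adjusted p = 0.00283), lost without untreated replicate 3, DAC replicate 2, ATRA replicate 2 or DAC+ATRA replicate 1 or 2 (adjusted p up to 0.0138). ITGB2 had means of 124, 158, 220 and 218, and an interaction of -0.35 (limma, adjusted p = 0.618). L3MBTL2-AS1, inside the gene of a Polycomb group protein, had 28.0, 43.8 and 35.8 in untreated, 8.90, 7.84 and 17.4 in DAC, 3.58, 11.2 and 12.5 in ATRA and 21.0, 24.8 and 19.4 in DAC+ATRA. Both single drugs gave lower values than the combination. The interaction of 2.94 ± 0.60 (limma, adjusted p = 0.00827) was lost in 12 of 21 alternatives, including 10 of 12 fits without 1 library (the exceptions being DAC replicate 3 and ATRA replicate 3), with an adjusted p of up to 0.0382.

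Each antisense RNA was then set beside the coding gene of its name. A coding partner that passed the level rule was there for 248 antisense RNAs, named for 245 genes. With ATRA both members of 23 pairs changed in the same direction, 10 higher and 13 lower, and those of 3 in opposite directions. The antisense RNA alone changed in 20 pairs, the coding gene alone in 51 and neither in 151. With DAC+ATRA there were 19 pairs in the same direction, 9 higher and 10 lower, 4 in opposite directions, 33 with only the antisense RNA, 53 with only the coding gene and 139 with neither. The 20 and the 33 both include ADAMTSL4-AS1, whose level came mostly from a transcript assigned to MCL1. With DAC the pair INHBA-AS1 and INHBA was the only one in which both were called, 6 pairs had only the antisense RNA and 22 only the coding gene. Without untreated replicate 1 the DAC+ATRA count of pairs in the same direction was 10.

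The coding partners were called at 9.39% with DAC, 31.4% with ATRA and 31% with both drugs, beside 6.76%, 23.7% and 26.1% of all symbols, and had a median of 140 normalised counts beside 75.3. Over all 248 pairs, the log2 changes of antisense RNA and coding gene had the same sign in 56.9% with DAC, 64.9% with ATRA and 64.9% with DAC+ATRA. As a description, Pearson's r across the pairs was 0.17, 0.50 and 0.40 and Spearman's rho 0.17, 0.40 and 0.32. The points share libraries, size factors and neighbouring sequence and are no replicates. Among 149 head to head pairs r was 0.38, 0.58 and 0.57, among 45 tail to tail pairs -0.05, 0.34 and 0.33, and among 39 pairs with the antisense RNA inside the coding gene 0.18, 0.45 and 0.09. In 59 pairs in which no antisense exon lies under an exon of the opposite strand it was 0.51, 0.52 and 0.42. Both members were called in the same direction in 1, 3 and 1 of these 59, beside 1, 23 and 19 of all 248. Whether reads of a coding gene entered the antisense RNAs that overlap it was not tested. Spearman's rho in these 59 was lower, at 0.32, 0.38 and 0.22. It was 0.27, 0.48 and 0.46 head to head, -0.05, 0.14 and 0.22 tail to tail and 0.16, 0.43 and 0.03 inside. Where the antisense RNA covers the coding gene (12 pairs), r was -0.41, 0.86 and 0.66 and rho -0.15, 0.53 and 0.42.

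**Figure D3:**
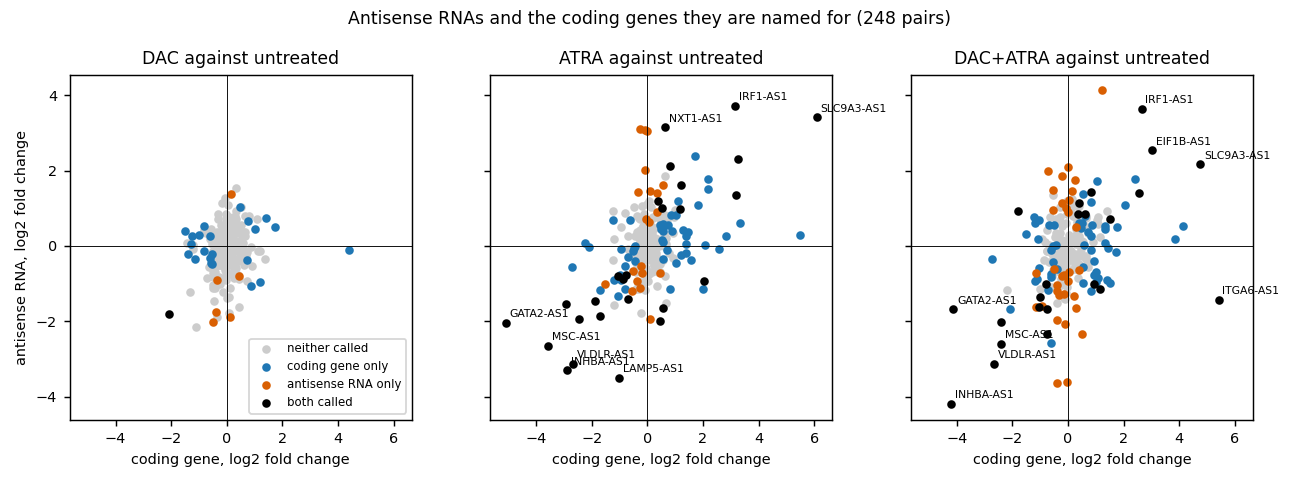
Log2 fold change of 248 antisense RNAs (vertical) against that of their coding gene (horizontal), with black points where both were called, orange where only the antisense RNA was and blue where only the coding gene was. IRF1-AS1, SLC9A3-AS1 and EIF1B-AS1 lie at the upper right with ATRA or DAC+ATRA, INHBA-AS1, VLDLR-AS1 and GATA2-AS1 at the lower left, and ITGA6-AS1 at the lower right with DAC+ATRA.

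Other pairs that fell together with ATRA were HOMER3-AS1 with HOMER3, a synaptic scaffold gene (log2 changes -1.92 and -2.44), ZNF436-AS1 with ZNF436, a zinc finger gene (-1.86 and -1.69), EPHA1-AS1 with EPHA1, an ephrin receptor gene (-1.46 and -1.88), and CDK6-AS1 with CDK6, a cell cycle kinase gene (-0.87 and -0.88). VASH1-AS1 with VASH1, which encodes a tubulin carboxypeptidase, rose together (1.60 and 1.22). These 5 were chosen after their values were seen.

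Pairs that moved in opposite directions were few. TTC28-AS1 lies tail to tail with TTC28 (chr22:27919376-28008581, plus strand) and had 422, 335 and 342 in untreated, 282, 270 and 317 in DAC, 186, 226 and 169 in ATRA and 153, 163 and 177 in DAC+ATRA. TTC28 had 66.1, 87.7 and 62.7 in untreated, 22.9, 36.1 and 38.1 in DAC, 277, 285 and 318 in ATRA and 140, 181 and 166 in DAC+ATRA. The antisense RNA fell by 0.92 ± 0.15 with ATRA (log2, limma adjusted p = 6.15e-05) while TTC28 rose by 2.02 ± 0.21 (limma, adjusted p = 2.49e-07), and with DAC+ATRA the log2 changes were -1.15 and 1.17. It was the only pair called in opposite directions in both comparisons, and none of these TTC28-AS1 calls was lost under an alternative. With DAC both values went down, TTC28 by 1.15 on the log2 scale (limma, adjusted p = 0.000809) and TTC28-AS1 from a mean of 367 to 290 (limma, adjusted p = 0.148).

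ITGA6-AS1 lies inside ITGA6, the gene of an integrin alpha chain. It had 24.1, 11.4 and 15.7 in untreated, 17.0, 20.8 and 23.4 in ATRA and 5.60, 5.63 and 5.11 in DAC+ATRA, while ITGA6 was at 0 in every untreated library and had 35.0, 45.0 and 47.0 in DAC+ATRA, at least 19.1-fold above the floor of 3 reads per library. The ITGA6-AS1 call (log2 change -1.43, limma adjusted p = 0.00544) was lost in 7 of 22 alternatives, among them without untreated replicate 1 or 3 or any 1 DAC+ATRA library, with an adjusted p of up to 0.045. KANSL1L-AS1 rose by 0.92 with DAC+ATRA where KANSL1L fell by 1.78 (log2), a call of the antisense RNA lost without untreated replicate 2 or 3 or DAC+ATRA replicate 2 or 3 (limma, adjusted p up to 0.0284). NAPA-AS1 had a log2 change of -1.0 where NAPA, which encodes a membrane fusion protein, had 0.94, and the NAPA-AS1 call (limma, adjusted p = 0.00911) was lost in 10 of 22 alternatives, 8 of them without 1 library (any untreated or DAC+ATRA library, or ATRA replicate 2 or 3), with an adjusted p of up to 0.0456. PRKAR2A-AS1, head to head with a protein kinase A subunit gene, had -1.65 with ATRA where PRKAR2A had 0.55, and that PRKAR2A-AS1 call (limma, adjusted p = 0.00781) was lost in 9 of 22, including without any 1 untreated library, ATRA replicate 1 or 3 or DAC+ATRA replicate 2 (adjusted p up to 0.0534). L3MBTL2-AS1 fell by 1.99 with ATRA where L3MBTL2 rose by 0.47 (log2).

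**Figure D4:**
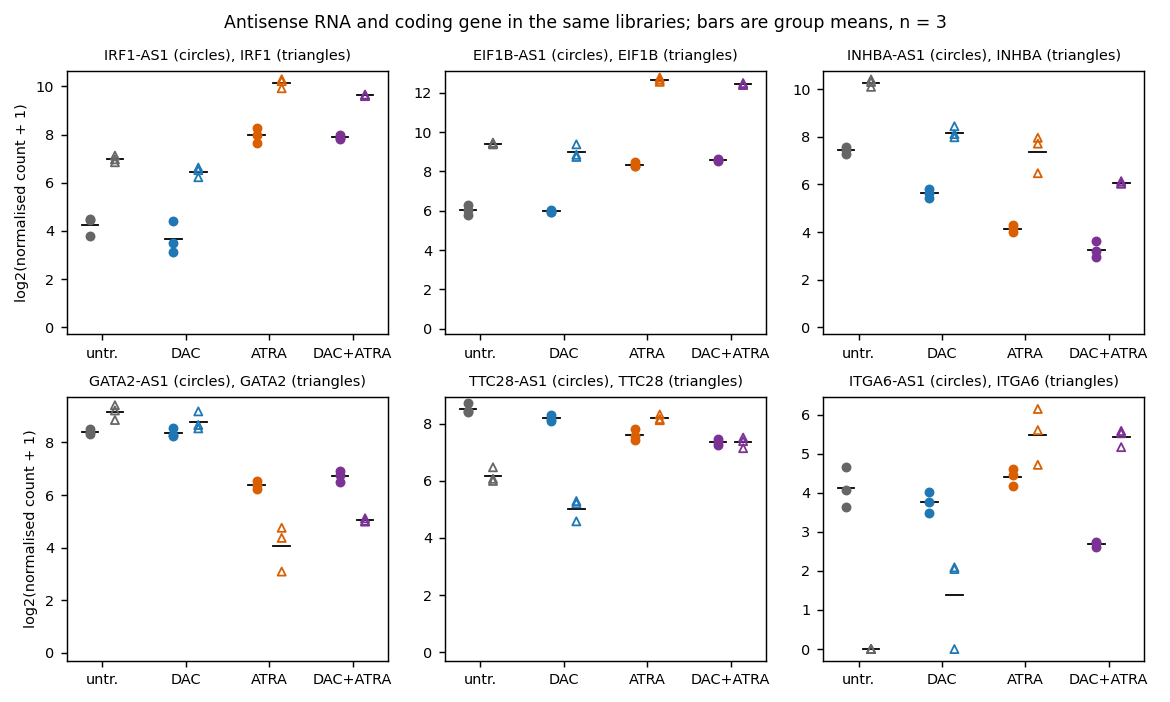
Antisense RNA (filled circles) and its coding gene (open triangles) in the same 12 libraries, as log2(normalised count + 1), with the mean of each group as a bar (n = 3). In the pairs of IRF1, EIF1B, INHBA and GATA2 both move the same way with ATRA, whereas TTC28 rose and TTC28-AS1 fell, and ITGA6 went from 0 to a mean of 42.3 in DAC+ATRA where ITGA6-AS1 went from 17.1 to 5.44.

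Position relative to the gene of the name went with different shares of calls. With DAC, 1 of 167 head to head antisense RNAs was called (0.599%), against 5 of 60 tail to tail (8.33%), 6 of 54 inside that gene (11.1%) and 0 of 25 that cover it, where 6.76% of all symbols were called. The single head to head RNA was INHBA-AS1. With DAC+ATRA these counts were 32 of 167 (19.2%), 21 of 60 (35%), 22 of 54 (40.7%) and 4 of 25 (16%), and with ATRA 31 (18.6%), 15 (25%), 14 (25.9%) and 3 (12%). The head to head RNAs that DAC+ATRA changed were 7 higher and 25 lower, whereas those inside the gene were 11 and 11. These shares were not tested.

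**Figure D5:**
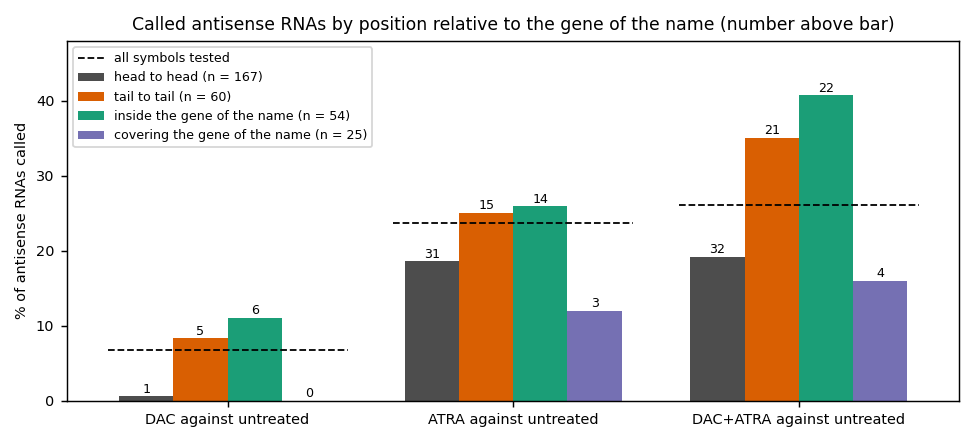
Percent of antisense RNAs called by limma, either direction, by position relative to the gene of the name, with the number called above each bar and the share over all 13448 symbols as a dashed line. Head to head RNAs stood below the dashed line in each comparison, at 0.599%, 18.6% and 19.2%. So did the RNAs that cover the gene, at 0%, 12% and 16%.

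Antisense RNAs with the highest counts included OIP5-AS1, FGD5-AS1, EPB41L4A-AS1 and SLC9A3-AS1, described above, and CARD8-AS1. CARD8-AS1 starts 271 bases from CARD8, which encodes an inflammasome sensor, and had 1002 ± 52.4 (SD, n = 3) in untreated cells, 768 ± 169 with DAC, 1032 ± 89.5 with ATRA and 883 ± 103 with both drugs. It was called in none of the 6 comparisons by limma, with adjusted p-values of 0.0583 with DAC and 0.855 with ATRA. Together the 317 held 0.378% to 0.492% of the normalised counts of a library.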

How the data were processed

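RNA of 12 MOLM-13 libraries was ribosome-depleted and sequenced strand-specifically. Per the submitters' notes the authors used FastQC, STAR on hg38, HTSeq and DESeq2, with versions not given in the sources used here. The deposited values are a normalised signal per transcript, read counts divided by 1 size factor per library, and 100% were whole multiples of that step (tolerance 0.01 reads). Rows were summed per symbol. Columns named CTRL were taken as untreated. Positions came from GENCODE release 44 on GRCh38 (88.9% of 100502 rows matched), and 3 symbols whose transcripts it gives to another gene were given no position.

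Symbols were tested where 3 or more libraries reached 10 normalised counts, with limma 3.58.1 in R 4.3.3 (lmFit, eBayes with trend) on log2(value + 1), which understates changes of low genes. One model took all 12 libraries, with Benjamini-Hochberg over 13448 symbols and a threshold of 0.01. The threshold follows the authors, who tested coding genes with DESeq2. The interaction is the DAC effect with ATRA minus that without it. On simulated data for DAC against untreated (13448 genes) the fit recovered 32% of 2-fold and 80% of 4-fold gains, and 24% and 64% of such losses. The changed genes, 50 per fold, were drawn at random from all tested symbols, whose median count was 75.3 against 29.5 for antisense RNAs. Recovery among antisense RNAs was not computed.

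Named antisense RNAs were the 6 largest called changes per direction in each comparison against untreated, those called in the interaction, those called opposite to their coding gene, the 5 of highest mean count, and those beside the level limit. GATA2-AS1 and ALOX12-AS1 were added after their values were seen, and 1 RNA that the rule named is not reported here. Members, lists and rules were chosen with earlier results of these data known. Alternatives were pseudocounts of 0.1 and 5, other filters, TMM factors, edgeR 4.0.16 and DESeq2 1.42.0 on recovered reads, only the compared groups, a replicate block, a threshold of 0.05, and leaving out each library.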

Additional observations from a re-analysis of the deposited data

Results flagged for a closer look

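In 3 antisense RNAs the interaction term was called, the DAC effect with ATRA minus that without it. This term includes the untreated libraries, whose labelled time differs. Each of these calls was lost in some fits that left out a library. It was -2.03 in ADAMTSL4-AS1, -1.17 in ITGB2-AS1 and 2.94 in L3MBTL2-AS1 (log2, limma). In ADAMTSL4-AS1 the DAC effect was 0.42 without ATRA and -1.60 with it, in ITGB2-AS1 0.48 and -0.69, and in L3MBTL2-AS1 -1.63 and 1.31. Of these DAC effects, only those with ATRA in ADAMTSL4-AS1 and ITGB2-AS1 were called (limma, adjusted p = 0.000163 and 0.0027). The ITGB2-AS1 call was lost in 4 of 22 alternatives.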

How the results depend on the processing

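At an adjusted p under 0.05 the counts of antisense RNAs were 34 for DAC against untreated, 104 for ATRA, 115 for DAC+ATRA, 83 for DAC+ATRA against DAC, 35 against ATRA and 4 for the interaction, and pairs called in the same direction were 2, 40 and 36 for the first 3. With only the compared groups the DAC count was 5. DESeq2 on recovered reads gave 25 for DAC+ATRA against ATRA and 5 for the interaction. Leaving out 1 library gave 7 to 19 (DAC), 45 to 77 (ATRA), 60 to 94 (DAC+ATRA), 38 to 59 (DAC+ATRA against DAC), 8 to 21 (against ATRA) and 0 to 3 (interaction, 0 without ATRA replicate 2), and 1 to 1, 16 to 30 and 10 to 26 pairs in the same direction. The cause was not tested, beyond the fewer samples. With the replicate block the counts were 11, 63, 74, 53, 13 and 3. For all symbols, the matching counts under these alternatives were not made, so they cannot be set beside those of antisense RNAs. Same-numbered libraries did not deviate together (18 correlations from -0.225 to 0.0941), so no pairing by number was seen. This check cannot show whether same-numbered libraries were handled together. Of 105 calls of named antisense RNAs, 64 were kept under every alternative run, 41 were lost under at least 1 and 0 reversed, and 24 other values were called under some alternative. Another scaling (TMM) moved the median of all symbols by at most 0.0181 (log2). The 6 libraries with DAC were the shallowest, and the part of depth in these counts was not tested.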
